A study of Mus musculus with 6 samples.

Results

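Fbl, Rrs1 and Utp20 encode 3 nucleolar proteins that build ribosomes, and their transcripts were followed in mouse CD4+ T cells kept with tunicamycin or with vehicle. The members were chosen by gene symbol, from a list of ribosome biogenesis genes whose response to tunicamycin in these same libraries was already known. They are 3 of 13685 gene rows in the table, and all 3 passed the filter on low counts, which left 3613 genes. The difference between tunicamycin and vehicle in counts and in TPM, over all 6 libraries and between libraries of the same number, went into that choice. These differences are therefore given as a description and carry no test.

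All cells were wild type, of the C57BL/6 strain, taken from spleen and mesenteric lymph node. CD4+ cells were isolated, regulatory (CD25+) T cells were left out, and the rest were cultured for 4 h at 1000000 cells per well. One group received tunicamycin at 0.15 µg/mL, a blocker of the first step of N-linked glycosylation that is used to stress the endoplasmic reticulum, and the controls received vehicle. The titles of the control samples read no treatment. Each group has 3 libraries, which the labels call technical replicates of a single batch. The spread between them may thus be technical, and no statement on mice can be drawn from it. The sources used here give no number of mice.

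Ribosomes are assembled in the nucleolus around ribosomal RNA that RNA polymerase I transcribes as a long precursor. Fibrillarin, the product of Fbl, is the methyltransferase of the box C/D small nucleolar ribonucleoproteins (snoRNPs), which methylate ribose in the precursor at sites set by their guide RNA. Rrs1 works with Rpf2 to bring the 5S ribonucleoprotein particle, made of 5S ribosomal RNA and the proteins Rpl5 and Rpl11, into the precursor of the large (60S) subunit. Utp20 is a very large scaffold protein of the small subunit processome, the assembly in which the precursor of the small (40S) subunit is folded and cut. Resting T cells make few ribosomes, and activation is known to raise all of these steps.

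The 3 genes differ widely in architecture, which matters for how reads become levels. In the GENCODE M21 annotation of GRCm38, Fbl lies on chromosome 7 from 28169710 to 28179269 on the + strand and has 6 transcripts. The one that encodes fibrillarin, Fbl-201, has 9 exons, a length of 1197 bases and 981 coding bases. The other 5 are 4 with a retained intron and 1 short coding transcript of 297 bases. Rrs1 lies on chromosome 1 from 9545408 to 9547455 on the + strand and is a gene of 1 exon with 1 transcript of 2048 bases. Utp20 spans 80198 bases on chromosome 10, from 88746607 to 88826804 on the - strand. Its full transcript has 62 exons and 8821 bases, and the other 6 are fragments of 484 to 914 bases. None of the 3 genes overlaps another gene model in that annotation. Most genes within 50000 bases had no row. The processed pseudogenes Gm18300 and Gm6161, both near Rrs1, had a row, and of these Gm6161 passed the filter. The GC content is 56.7% for Fbl-201, 54.2% for Rrs1-201 and 46.8% for Utp20-201.

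The first 120 bases of each coding sequence are shown because they identify the members and set fibrillarin apart by its glycine- and arginine-rich tail, the stretch that the protein carries at its amino end. Capitals mark codons for glycine (GGN) and arginine (CGN, AGA or AGG) in frame. The sequences are from the GENCODE M21 transcripts. The Fbl stretch lies in exons 1 and 2 (chr7:28169809-28169818 and chr7:28174504-28174613), that of Rrs1 in its exon (chr1:9545524-9545643), and that of Utp20, on the - strand, in exons 1 and 2 (chr10:88826606-88826650 and chr10:88825424-88825498).
Fbl: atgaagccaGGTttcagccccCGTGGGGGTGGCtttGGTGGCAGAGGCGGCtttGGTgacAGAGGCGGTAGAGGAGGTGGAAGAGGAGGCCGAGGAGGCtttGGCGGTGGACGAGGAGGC
Rrs1: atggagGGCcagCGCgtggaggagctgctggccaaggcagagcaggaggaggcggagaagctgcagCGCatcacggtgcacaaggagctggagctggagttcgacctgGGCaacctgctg
Utp20: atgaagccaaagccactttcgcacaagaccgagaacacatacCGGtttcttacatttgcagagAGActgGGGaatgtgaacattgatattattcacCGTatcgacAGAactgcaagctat
Of these 40 codons, 30 are for glycine or arginine in Fbl, 4 in Rrs1 and 5 in Utp20. Over the whole coding sequence the shares are 30.3%, 20.0% and 8.5%.

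The summed counts of the rows were 7412151 to 9495725 in vehicle and 10584276 to 11211270 in tunicamycin, so the groups did not overlap in this total. The mitochondrially encoded share was 16.6% to 18.6% in vehicle and 15.5% to 18.1% in tunicamycin. Of 20 listed CD4 T cell markers, 9 had a row, among them Cd3e, Cd3d, Trbc2 and Il7r but not Cd4, and they summed to 23287 to 23752 CPM in vehicle and 22889 to 23474 CPM in tunicamycin. These T cell genes were thus abundant in all libraries. Markers of other cells were low: the B cell list (2 of 6 with a row) summed to 3.68 to 7.3 CPM over all libraries, the neutrophil list (3 of 5, Ly6g at 0) to 0 to 4.8, the erythroid and platelet list (7 of 9) to 4.25 to 21.9, the macrophage list (4 of 7) to 16.1 to 45.9 and the dendritic cell list (1 of 5) to 1.03 to 7.79 CPM. Higher sums were found for NK cell genes (6 of 9), at 73.4 to 83.5 CPM in vehicle and 78.9 to 101 in tunicamycin, and for plasma cell genes (4 of 7), at 84.2 to 677 and 95.4 to 677 CPM. Il2ra, the 1 regulatory T cell marker with a row, was at 73.3 to 102 and 88.3 to 124 CPM, Cd8b1 at 44.8 to 53.3 and 47.5 to 55.8 CPM, and 9 of 12 T cell activation genes summed to 1659 to 2338 and 1568 to 2601 CPM. None of the 5 stromal and endothelial markers was analysed here. For these marker lists the ranges of the summed levels overlapped between the groups. Single NK cell genes leaned higher in tunicamycin, with 0 called. All 5 of 5 tested lay above 0, where 49.9% of all genes lay below 0, and their median log2 fold change was 1.11. The groups did not overlap for 1 (Klre1, at 1.47 CPM in vehicle and 3.18 in tunicamycin), beside 6.62% of all genes that were higher. An unadjusted p under 0.05 was found for 1 (Gzma, at 4.17 and 9.27 CPM), beside 6.42% of all genes. Prf1, at 68.1 and 68.8 CPM, made up most of the sum. Of 9 tested CD4 T cell genes 2 were lower at an unadjusted p under 0.05, beside 3.18% of all genes, with 0 called and a median of 0.00. Below 0 lay 5 of 6 tested erythroid and platelet genes (median -0.48) and 3 of 4 macrophage genes (median -0.47), beside 49.9% of all genes. In both lists 0 were called. The part of these markers in the results was not tested.

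Fbl transcripts were lower in tunicamycin. Counts were scaled to a library total of 1000000 with a TMM composition factor (CPM). The vehicle libraries, in the order of their numbers 1, 2 and 3, gave 482, 492 and 476 CPM for Fbl. The tunicamycin libraries, in the same order, gave 396, 381 and 374 CPM. All 3 tunicamycin libraries lay below all 3 vehicle libraries, with 80.2 CPM between the nearest pair. The means were 483 ± 7.91 and 384 ± 11.2 CPM (mean ± SD of 3 libraries), a change of -20.6%. The fitted log2 fold change was -0.33 with an SE of 0.05 and a 95% interval of -0.45 to -0.21. The summed counts moved with the groups too, and their part in the result was not tested. In bulk RNA, less Fbl RNA per cell and fewer cells that carry it cannot be told apart.

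Rrs1 was lower by nearly the same proportion, from a level several times below that of Fbl. The vehicle libraries gave 104, 92.2 and 94.8 CPM in the order of their numbers, and the tunicamycin libraries 78.1, 75.3 and 76.8 CPM. Again the groups did not overlap, with a gap of 14.0 CPM. The vehicle libraries were the more spread, with vehicle replicate 1 the highest. The means were 96.9 ± 6.17 and 76.7 ± 1.41 CPM (mean ± SD of 3 libraries), a change of -20.9%, and the log2 fold change was -0.34 with an SE of 0.10 and a 95% interval of -0.55 to -0.13.

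Utp20, the small subunit member, stayed within the vehicle range. The vehicle libraries gave 128, 139 and 126 CPM in the order of their numbers, and the tunicamycin libraries 134, 135 and 135 CPM. All tunicamycin libraries lay between the lowest and the highest vehicle library. The means were 131 ± 6.87 and 135 ± 0.42 CPM (mean ± SD of 3 libraries), and the log2 fold change was 0.04 with an SE of 0.08 and a 95% interval of -0.13 to 0.22. The difference between the members was not tested, since the contrast had been used to choose them.

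**Figure D1:**
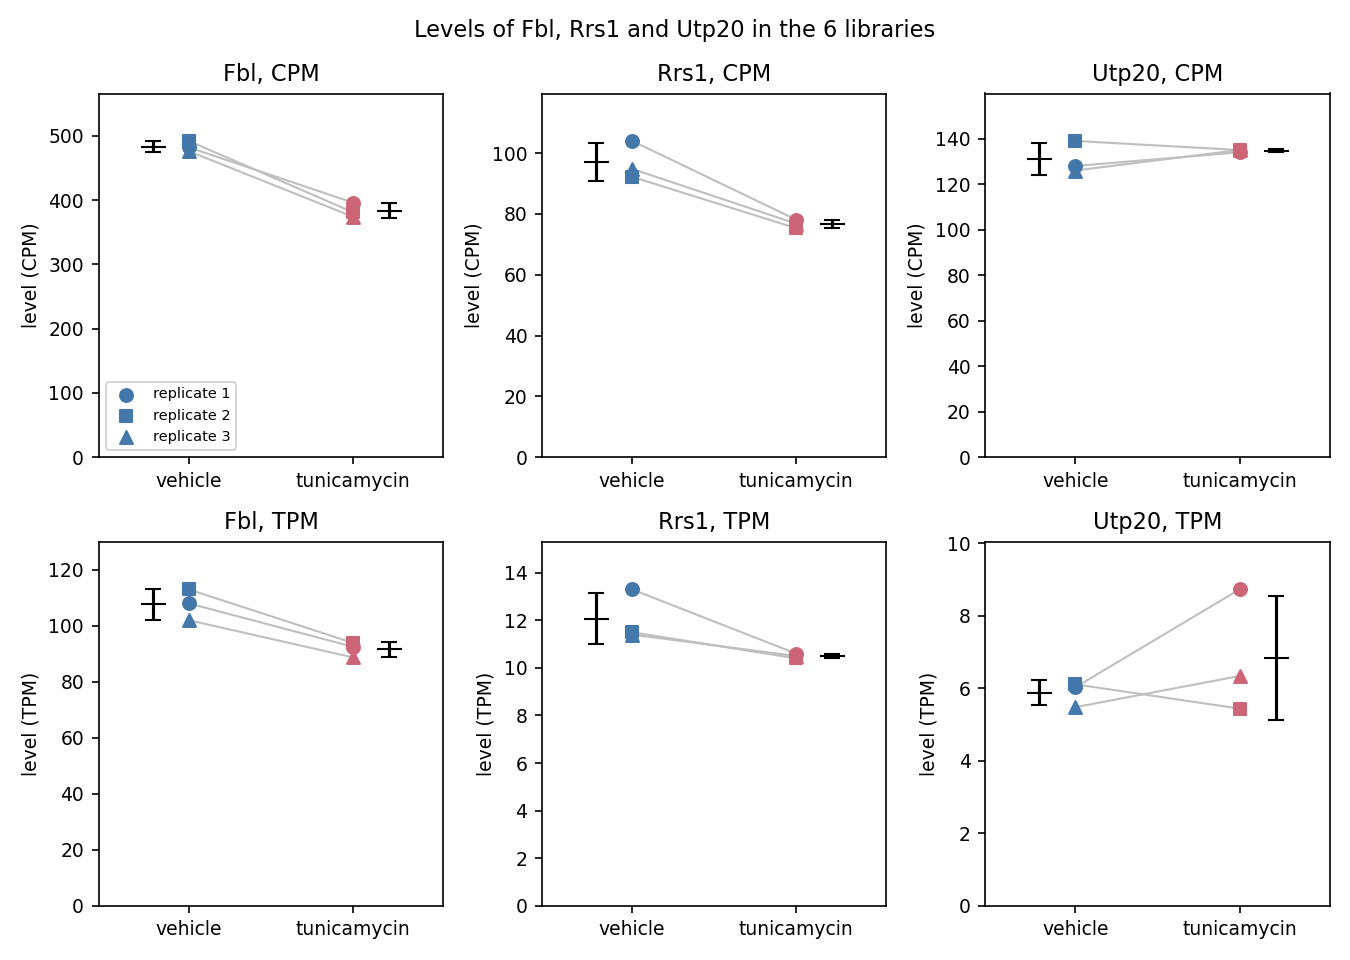
Levels of Fbl, Rrs1 and Utp20 in each library, as CPM (top) and as the authors' TPM (bottom). Points are libraries, with the shape giving the replicate number, grey lines join libraries of the same number, bars give the mean ± SD of 3 libraries, and all axes start at 0. Fbl and Rrs1 are lower in each tunicamycin library on both scales, Fbl at 374 to 396 CPM against 476 to 492 in vehicle, while Utp20 is level in CPM and spread from 5.44 to 8.73 TPM in tunicamycin.

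Libraries of the same number gave similar differences for Fbl and Rrs1. For Fbl the difference in log2 CPM, tunicamycin minus vehicle, was -0.28, -0.37 and -0.35 for numbers 1, 2 and 3. For Rrs1 it was -0.41, -0.29 and -0.30, the first being the widest, with vehicle replicate 1 high. For Utp20 it was 0.07, -0.04 and 0.10, with mixed signs. The SD of these 3 differences was 0.04 for Fbl, 0.07 for Rrs1 and 0.07 for Utp20. The 2 groups' own SDs would give 0.05, 0.09 and 0.07 if numbers were ignored, so matching by number changed the spread little for these genes.

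The spread between libraries was set beside counting error. The mean estimated count of Fbl was 3881 in vehicle and 4233 in tunicamycin, for which counting alone gives a coefficient of variation of 1.6% and 1.5%. The libraries varied by 1.6% and 2.9%. For Rrs1, with mean counts of 778 and 847, counting alone gives 3.6% and 3.4%, and the libraries varied by 6.4% and 1.8%. For Utp20, with mean counts of 1051 and 1490, counting gives 3.1% and 2.6%, and the libraries varied by 5.2% and 0.3%. The SDs of Rrs1 and Utp20 in tunicamycin were thus smaller than counting error alone gives. The fitted SEs draw on the spread over all genes.

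In the fit across all 3613 genes with edgeR's quasi-likelihood test, 0 of the 3 members passed the threshold of 0.05 after Benjamini-Hochberg adjustment. In that fit 0.083% of all genes passed, 2 higher (Rps12l1 and Nnt, both at 0 in all vehicle libraries) and 1 lower (Ccng1, the cyclin G1 gene, a target of p53). At an unadjusted p under 0.05 there were 2 of 3 members, both lower, beside 6.42% of all genes and 3.18% that were lower. DESeq2 called 1 member, Fbl, lower, beside 0.637% of all genes called by it (0.332% higher and 0.305% lower). With limma on log2(TPM + 1) 0 members passed, beside 0.0277%. The CPM of the groups did not overlap, with tunicamycin lower, for 2 of 3 members and for 5.95% of all genes. These counts follow from how the members were chosen. Ordered from the most negative fold change, Rrs1 was 351st and Fbl 354th of the 3613 genes, and Utp20 was 2106th.

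Levels per transcript length, in the authors' TPM, order the members differently from counts. For Fbl the vehicle libraries gave 108, 113 and 102 TPM in the order of their numbers and the tunicamycin libraries 92.5, 93.9 and 88.7 TPM. For Rrs1 the vehicle libraries gave 13.3, 11.5 and 11.4 TPM and the tunicamycin libraries 10.6, 10.4 and 10.5 TPM. For Utp20 the vehicle libraries gave 6.03, 6.11 and 5.48 TPM and the tunicamycin libraries 8.73, 5.44 and 6.34 TPM. Fbl therefore stood highest and Utp20 lowest in each of the 6 libraries, and the ranges of the 3 genes did not overlap. Utp20 had more counts than Rrs1 but a lower TPM, and has the longer transcript. Over all 6 libraries the mean TPM of Fbl was above that of 92.6% of tested genes, that of Rrs1 above 56.7% and that of Utp20 above 46.8%. Among 61 tested ribosome biogenesis genes they ranked 5th, 47th and 56th by TPM.

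On the TPM scale both lower members differed less between the groups than in CPM. The mean of Fbl went from 108 ± 5.89 to 91.7 ± 2.72 TPM (mean ± SD of 3 libraries), a change of -14.9%. The mean of Rrs1 went from 12.1 ± 1.04 to 10.5 ± 0.111 TPM, a change of -12.9%. For neither gene did the groups overlap in TPM, but the gap for Rrs1 was 0.81 TPM, below the vehicle SD. Over all genes, 3.54% were lower in TPM with no overlap. By number, Fbl differed by -0.23, -0.27 and -0.20 in log2 TPM and Rrs1 by -0.32, -0.14 and -0.12. For Utp20 the mean went from 5.87 ± 0.343 to 6.83 ± 1.70 TPM, and the differences by number were 0.53, -0.17 and 0.21 in log2 TPM, so its direction was not the same in all of them. The ratio of Fbl to Rrs1 in TPM was 8.14 to 9.86 in vehicle and 8.43 to 9.02 in tunicamycin, the second range lying inside the first. The ratio of Fbl to Utp20 was 17.9 to 18.6 in vehicle and 10.6 to 17.3 in tunicamycin.

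A part of the gap between the scales, that of the gene itself, can be read from the ratio of deposited count to deposited TPM. This ratio rises with the effective transcript length that the quantification assigned to a gene. The ratio was taken relative to the median gene of each library and to the gene's own mean, on a log2 scale. A shift shared by all genes is thus left out of it. The median log2 fold change of all genes was 0.05 in limma on log2(TPM + 1) and 0.00 in edgeR on counts. For Rrs1, with a single annotated transcript, it was 0.05 in each of the 3 vehicle libraries, and -0.05, -0.04 and -0.06 in tunicamycin replicates 1, 2 and 3. The difference between the groups was -0.099, and over 1176 tested genes with 1 annotated transcript its median was -0.007, with 8.8% of them lower than Rrs1. In the 294 of these genes with a GC content of 54.9% to 70.7% the median difference was -0.058. It was -0.014 at 50.6% to 54.9%, the group that holds Rrs1, 0.006 at 46.3% to 50.6% and 0.020 in the 294 at 31.9% to 46.3%. By length the median difference was 0.028 at 111 to 723 bases and -0.007 at 727 to 1421. It was -0.029 at 1436 to 2997 bases, the group that holds Rrs1, and -0.024 at 3002 to 123179. Fbl, with 6 transcripts, is not among these genes. GC content and transcript length thus moved with the count-to-TPM ratio, and their part in the values of Fbl and Rrs1 was not tested. For Fbl the ratio was 0.06, -0.02 and 0.05 in vehicle and -0.01, -0.05 and -0.03 in tunicamycin.

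For Utp20 the ratio varied most within the tunicamycin group. It was 0.02, 0.09 and 0.06 in vehicle replicates 1, 2 and 3, but -0.45, 0.27 and 0.01 in tunicamycin replicates 1, 2 and 3. Its range of 0.72 was wider than that of 92.8% of 3399 tested genes with counts in every library, and the median range was 0.11 over those genes. The median range was 0.06 for genes with 1 annotated transcript and 0.27 for those with at least 6. Tunicamycin replicate 1, which had the highest TPM of Utp20, had the ratio farthest below 0, while its CPM of 134 was that of the other tunicamycin libraries. Among the tunicamycin libraries the coefficient of variation of Utp20 was 0.3% in CPM and 24.9% in TPM. How counts were shared among its full and short transcripts was not analysed here.

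**Figure D2:**
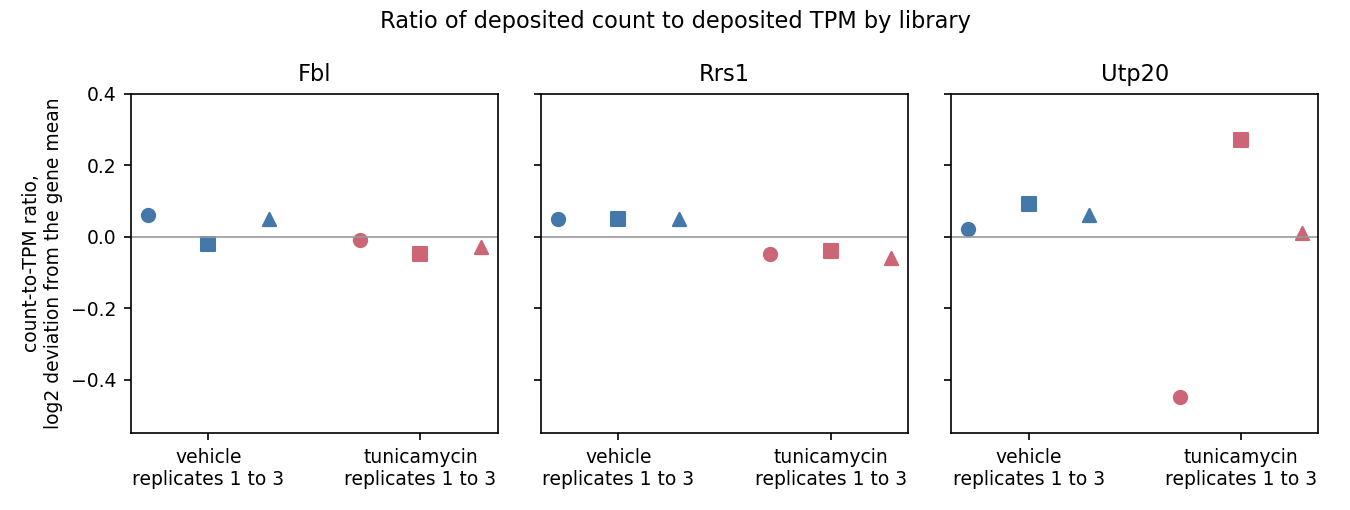
Ratio of deposited count to deposited TPM for each member in each library, as a log2 deviation from the gene's mean after the median gene of the library was set to 0. Blue points are vehicle and red points tunicamycin libraries, with the replicate number given by position and shape. Rrs1 separates by group, at 0.05 in vehicle and -0.06 to -0.04 in tunicamycin, and Utp20 runs from -0.45 to 0.27 within tunicamycin.

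The members belong to a larger set of nucleolar factors, and 214 other ribosome biogenesis genes were listed by role. Of these, 61 had a row and 58 were tested, so most of the pathway was not analysed here. In edgeR 0 of 58 were called, beside 0.083% of all genes. An unadjusted p under 0.05 was found for 8, each of them lower in tunicamycin, beside 3.18% of all genes that were lower. DESeq2 called 1 lower, Nsa2, beside 0.305% of all genes. Limma on log2(TPM + 1) called 0, beside 0.0277%. Of the 58, 43 had a log2 fold change below 0, beside 49.9% of all genes, and the median was -0.06, beside 0.00 for all genes. The CPM groups did not overlap for 10 lower genes and 1 higher gene, beside 5.95% lower and 6.62% higher over all genes. With any 1 library left out, 38 to 43 lay below 0. On log2(TPM + 1) 27 of 58 lay below 0, beside 37.6% of all genes, and the median was 0.00, beside 0.05 for all genes.

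Among the partners of Fbl, 1 box C/D protein besides it was tested. This was Snu13, which binds the kink-turn of the guide RNA, at 271 ± 23.8 CPM in vehicle and 262 ± 16.4 in tunicamycin (mean ± SD of 3 libraries), with a fitted log2 fold change of -0.05 (95% interval -0.22 to 0.12). Fbll1, a fibrillarin-like gene, was at 0 in every library. In the sister class, the box H/ACA snoRNPs that convert uridine to pseudouridine, 2 of 6 genes were tested and 0 were called. Nop10 was at -0.27 (95% interval -0.51 to -0.02) and Nhp2 at -0.01 (95% interval -0.30 to 0.28). Of 10 snoRNP assembly genes 3 were tested, with a median of -0.05, among them Rpap3 at -0.05 and Nufip1 at -0.04. The groups overlapped for all of these genes.

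Upstream of all members stands RNA polymerase I. Of 26 listed genes 4 were tested, and 3 had a log2 fold change above 0. Rrn3, the initiation factor of this polymerase, was at 0.02 (95% interval -0.13 to 0.17). Ddx21, a nucleolar RNA helicase with ties to ribosomal RNA transcription, was at 1238 ± 51.9 CPM in vehicle and 1083 ± 30.6 in tunicamycin (mean ± SD of 3 libraries), with a fitted log2 fold change of -0.19 (95% interval -0.31 to -0.08), and did not overlap between the groups in CPM. In TPM its groups overlapped.

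The processome and the later steps of the small subunit, where Utp20 acts, had 16 other tested genes. Of these, 14 lay below 0, beside 49.9% of all genes, and the median was -0.12, beside 0.00. With log2(TPM + 1) the number was 11, beside 37.6% of all genes, and the median -0.05, beside 0.05. Riok3, a kinase of late 40S maturation, was at 0.11 (95% interval 0.00 to 0.22) and Bms1, the GTPase of the processome, at -0.06 (95% interval -0.19 to 0.08). Utp4 and Utp15, further proteins of the same particle, picked with their values known, stood at -0.04 and -0.05. Bysl, which acts in the release of the maturing 40S particle and was also chosen after its values were seen, had the lowest fold change of this group at -0.32 (95% interval -0.58 to -0.06), going from 57.5 ± 3.85 to 45.9 ± 1.48 CPM (mean ± SD of 3 libraries). Ranked from the highest, the fold change of Utp20 was 14th of the 61 tested ribosome biogenesis genes.

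The assembly of the 60S subunit, where Rrs1 acts, had 18 other tested genes. Of these, 11 lay below 0, beside 49.9% of all genes, and the median was -0.04, beside 0.00. The other components of the 5S particle step, Rpf2, Rpl5 and Rpl11, were not analysed here. Nsa2, an assembly factor of the large subunit, was at 1917 ± 67.0 CPM in vehicle and 1678 ± 55.7 in tunicamycin (mean ± SD of 3 libraries), with a fitted log2 fold change of -0.19 (95% interval -0.31 to -0.07). Noc2l was at 0.00 (95% interval -0.12 to 0.12). In this group the count below 0 was 6 of 18 on log2(TPM + 1), beside 37.6% of all genes. The median was 0.06, beside 0.05 for all genes. Rrs1 had the second lowest fold change and Fbl the third lowest of the 61 genes. The lowest was C1d, a cofactor of the nuclear exosome chosen after its values were seen, at -0.34 (95% interval -0.58 to -0.11). The exosome and other nucleases of ribosomal RNA had 14 tested genes with 0 called and 11 below 0, beside 49.9% of all genes. On log2(TPM + 1) 8 of 14 lay below 0, beside 37.6% of all genes. The abundant exonuclease Xrn2 was at -0.02 (95% interval -0.13 to 0.10) and Eri1 at -0.09 (95% interval -0.23 to 0.04).

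**Figure D3:**
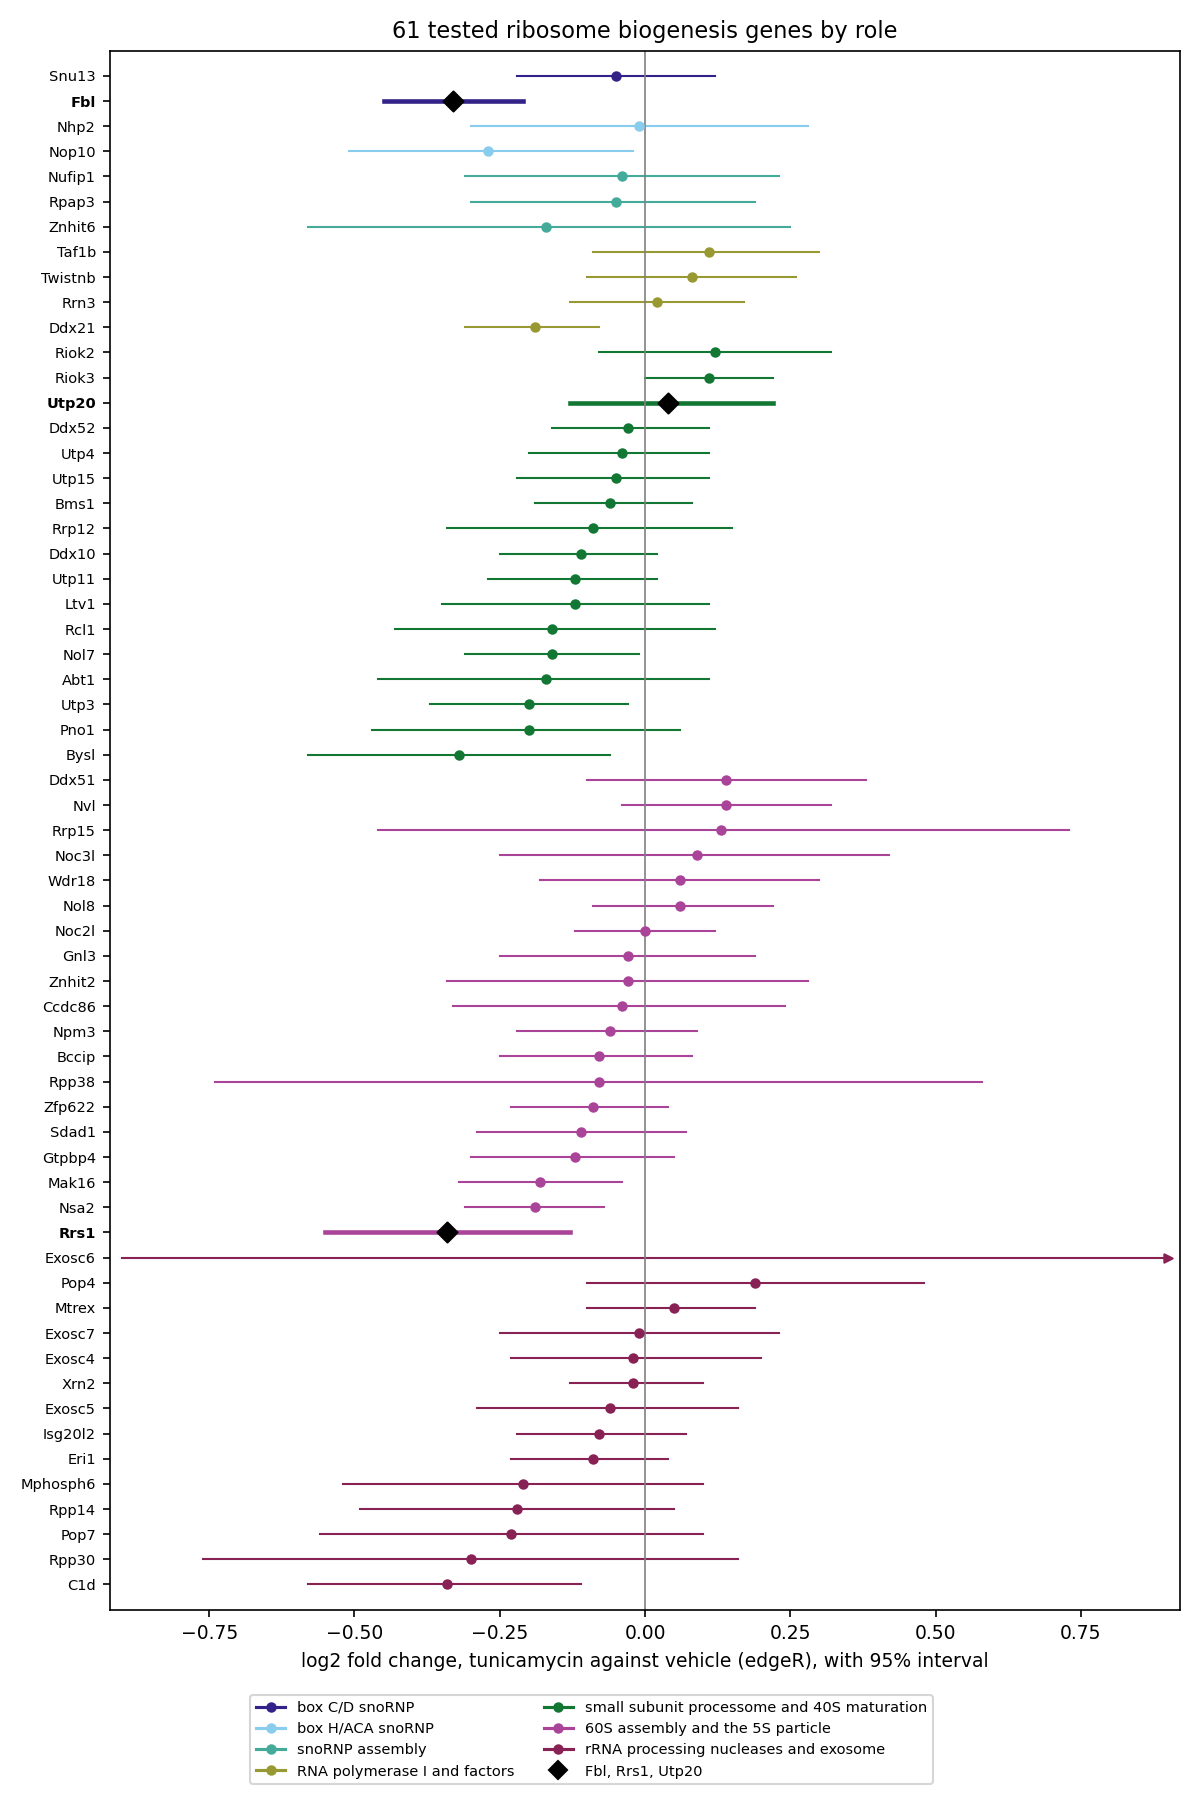
Log2 fold change of tunicamycin against vehicle with its 95% interval for the 61 tested ribosome biogenesis genes, coloured by role, with Fbl, Rrs1 and Utp20 as black diamonds. Exosc6, at 0.97 with an interval of -5.79 to 7.72, runs off both ends of the axis, with an arrow in place of its point. Fbl and Rrs1 stand at the low end, at -0.33 and -0.34, and Utp20 among the genes near 0.

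Ribosomal proteins and other partners downstream of the members were compared in the same fit. Of 24 tested cytosolic ribosomal protein genes, edgeR called 0. At an unadjusted p under 0.05 there were 8, all lower, beside 3.18% of all genes. DESeq2 called 3 lower (Rpl23, Rpl35 and Rps23), beside 0.305% of all genes, and limma on log2(TPM + 1) called 0. With the replicate block edgeR called 5 lower (Rpl23, Rpl35, Rpl37, Rps23 and Rps7), beside 0.609% of all genes, and without the filter 2 lower (Rpl35 and Rps23), beside 0.0888%. With the block and effective-length offsets it called Rps20 and Rps23, 1 higher and 1 lower, beside 0.083% of all genes higher and 0.083% lower. The median of the 24 was -0.09, beside 0.00 for all genes, and 19 lay below 0, beside 49.9% of all genes. Rpsa was at -0.08 (95% interval -0.22 to 0.05) and Rpl4 at -0.10 (95% interval -0.23 to 0.04). Of 9 translation factors 0 were called and 8 lay below 0, beside 49.9% of all genes. On log2(TPM + 1) 6 of 9 lay below 0, beside 37.6% of all genes. Eif3f was at -0.11 (95% interval -0.23 to 0.01) and Eif3a, a large subunit of initiation factor eIF3, at -0.15 (95% interval -0.26 to -0.03). RNA polymerase III, which transcribes the 5S ribosomal RNA that Rrs1 handles, had 10 tested genes with 0 called, 4 below 0 and a median of 0.05. An unadjusted p under 0.05 was found for 1 translation factor and 0 of the polymerase III genes, and DESeq2 and limma called 0 in both lists. Among the polymerase III genes Gtf3c2 was at -0.01 (95% interval -0.18 to 0.16) and Brf1 at 0.12 (95% interval -0.05 to 0.29).

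Disturbed ribosome assembly is known to stabilise p53 through the 5S particle, and a list of nucleolar stress and p53 genes was therefore read beside Rrs1. Of 18 listed genes 7 had a row and 5 were tested. Of the tested genes 1 was called lower, beside 0.0277% of all genes. At an unadjusted p under 0.05 3 were lower, beside 3.18%, and 4 lay below 0, beside 49.9%. Ccng1 went from 972 ± 32.2 to 744 ± 40.6 CPM (mean ± SD of 3 libraries), with a fitted log2 fold change of -0.39 (95% interval -0.51 to -0.26, edgeR adjusted p = 0.025), with 3 of 3 tunicamycin libraries below all vehicle libraries. The call was lost without vehicle replicate 1, 2 or 3, without tunicamycin replicate 2 or 3, and with effective-length offsets, limma on TPM, no composition factor or no robust estimation. The other named members of the list were Rpl23 at -0.18 (95% interval -0.30 to -0.06) and Sesn2 at 0.02 (95% interval -0.23 to 0.26). Rpl23, which was also counted in the ribosomal protein list above, was called lower in DESeq2, beside 0.305% of all genes, and with the replicate block, beside 0.609%. The remaining genes, named after their values were seen, were Phlda3, a p53 target, at -0.85 (95% interval -1.52 to -0.19) with no overlap in CPM or TPM, and Pmaip1 at -0.19 (95% interval -0.81 to 0.43). Of 21 listed genes of the response to tunicamycin 9 had a row and 8 were tested. Among the tested genes 0 were called in edgeR, DESeq2 or limma. An unadjusted p under 0.05 was found for 2, Calr (lower) and Pck2 (higher), beside 6.42% of all genes. Pck2, a mitochondrial enzyme gene named after its values were seen, had the highest fold change of the list at 0.37 (95% interval 0.16 to 0.57), at 147 ± 19.0 CPM in vehicle and 190 ± 6.24 in tunicamycin, with no overlap in CPM or TPM. It was called higher in edgeR with the replicate block, beside 0.387% of all genes, and in edgeR without the filter, beside 0.148%. Calr, a chaperone of the endoplasmic reticulum, was at -0.14 (95% interval -0.25 to -0.03), and Atf4 at -0.05 (95% interval -0.19 to 0.10). The rest, named after their values were seen, were Dnajb9 at 0.05, Dnajc3 at 0.01, Atf6 at -0.01, Creld2 at -0.15 and Dpagt1 at 0.18. Each of these had a 95% interval that spans 0.

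Genes with a pattern like each member were sought among the 1903 other genes that averaged 5 log2 CPM or more, by Pearson's r over the 6 libraries. For Fbl the highest values were those of Rnasek (0.990), Ccng1 (0.978), Psmb2 (0.976), 2700062C07Rik (0.957) and Got2 (0.948). For Rrs1 they were those of Utp11 (0.985), Ccng1 (0.973), Psmb2 (0.972), Suclg2 (0.971) and Mob2 (0.959). Utp11 is itself a small subunit processome gene, at 208 ± 3.83 CPM in vehicle and 191 ± 2.75 in tunicamycin (mean ± SD of 3 libraries). For each of the genes listed for Fbl and Rrs1 the groups did not overlap, tunicamycin being lower, beside 5.95% of all genes. They were picked for their likeness to members whose groups do not overlap, so nothing is read from this. Fbl and Rrs1 had an r of 0.938 with each other, while Utp20 had an r of -0.375 with Fbl and -0.576 with Rrs1. For Utp20 the highest values were those of Cdh24 (0.973), Bet1 (0.966), Ubxn2b (0.958), Acsf2 (0.950) and Pts (0.943), for which the groups overlapped. With 6 libraries that share depth and group, and many genes searched, these values are descriptions.

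The members' fold changes kept their sign under the 17 other processing choices tried. Fbl ran from -0.36 to -0.23, Rrs1 from -0.37 to -0.18 and Utp20 from 0.01 to 0.19. Fbl passed the threshold under 4 of these choices, Rrs1 and Utp20 under 0. The 4 were DESeq2, edgeR with DESeq2 size factors (0.111% of genes called), edgeR without the filter (0.237%, of which lower 0.0888%) and edgeR with the replicate number as a block (0.996%, of which 0.387% higher and 0.609% lower). Since the contrast chose the members, nothing is read from these calls. Fbl did not pass in edgeR with effective-length offsets (0.0554%) or in limma on TPM. The values nearest to 0 for Fbl and Rrs1, and the highest for Utp20, were those from TPM.

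**Figure D4:**
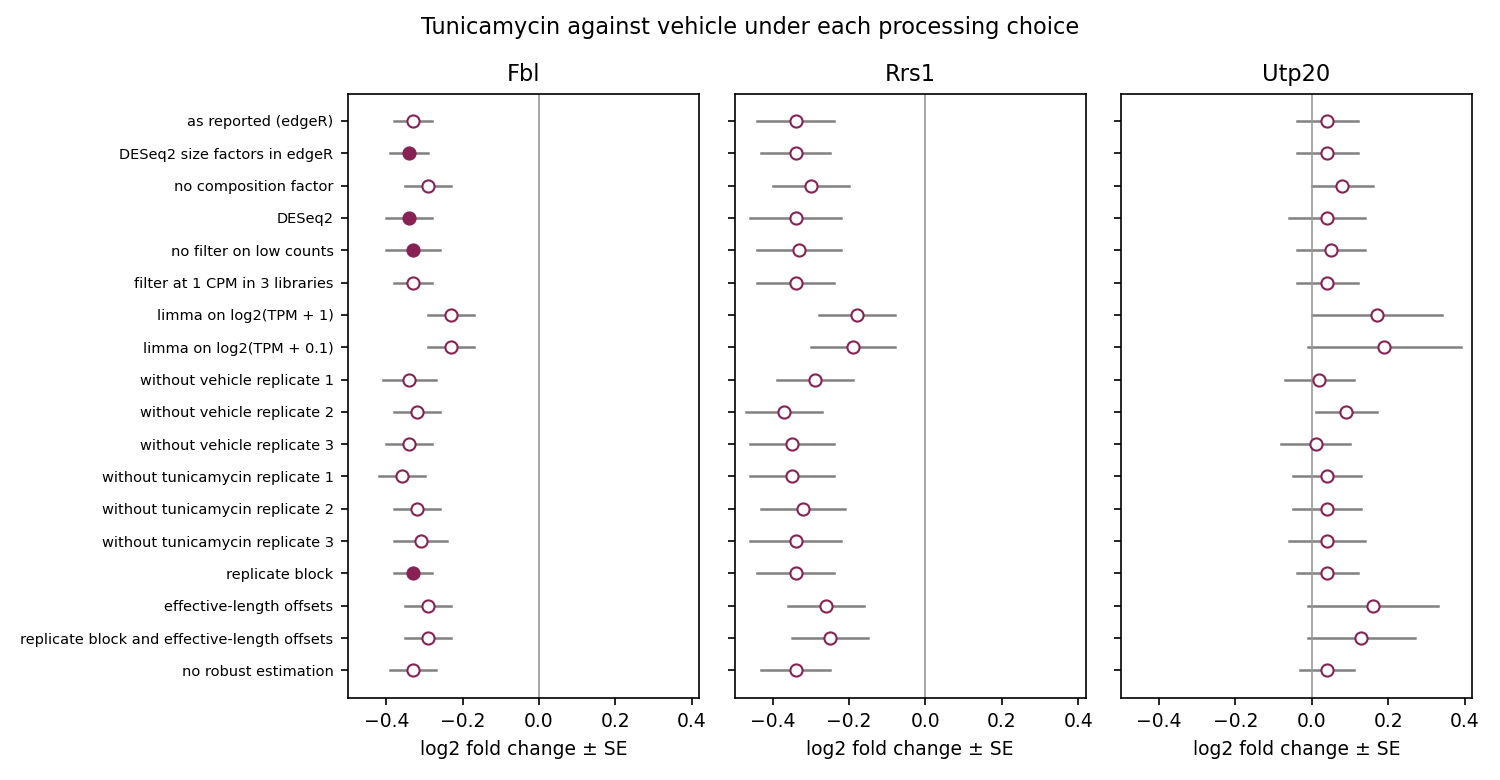
Log2 fold change ± SE of each member under the reported fit and the 17 other processing choices, with filled points where the gene passed the adjusted threshold in that fit. Filled points appear for Fbl under 4 choices, Rrs1 stays between -0.37 and -0.18, and Utp20 between 0.01 and 0.19.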

How the data were processed

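RNA was sequenced in 6 libraries, 3 with tunicamycin and 3 with vehicle. The input was 200 ng of RNA and reads were 150 bp pairs, per the labels' protocols. Salmon, bcl2fastq, DESeq2 and the GRCm39 build are named in the submitters' processing notes, with no version or role. Gene tables of estimated counts (expected counts, partly fractional, not normalized) and of TPM, with the same rows, were deposited by the authors. Neither annotation nor transcript summing is given in the sources used here. The rows used here hold a part of the transcriptome, so CPM are shares of these rows. They summed to 331373 to 332870 TPM per library in vehicle and 319120 to 330627 in tunicamycin. The groups did not overlap in this total, and its part in the results was not tested. The deposited estimated counts were rounded to whole numbers and fitted in edgeR 4.0.16, R 4.3.3 (filterByExpr, TMM, robust quasi-likelihood F test, 2-sided, Benjamini-Hochberg threshold 0.05), a fit checked on simulated data. Log2 CPM has a prior count of 2. DESeq2 1.42.0 and limma 3.58.1 on log2(TPM + 1) or log2(TPM + 0.1) were alternatives, with other scalings and filters, each library left out, a replicate block and effective-length offsets. Such an offset divides out the count-to-TPM ratio. Symbols were matched for 13627 identifiers, and positions are on GRCm38, whose annotation was at hand. The members, gene lists, tests and alternatives were chosen with earlier results of these data known. Per list, up to 4 called genes and, with under 2 called, up to 2 others with the highest mean were named. For each member, 5 genes of like pattern were named, as were the genes called over all genes.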

Additional observations from a re-analysis of the deposited data

How the results depend on the processing

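With effective-length offsets the log2 fold changes were -0.29 (Fbl), -0.26 (Rrs1) and 0.16 (Utp20), and with a replicate block and these offsets -0.29, -0.25 and 0.13. In limma on log2(TPM + 1) they were -0.23, -0.18 and 0.17, and on log2(TPM + 0.1) -0.23, -0.19 and 0.19. Without a composition factor Fbl was at -0.29. Without 1 library Fbl lay between -0.36 and -0.31, Rrs1 between -0.37 and -0.29 and Utp20 between 0.01 and 0.09. Over all genes, where 2 were higher and 1 lower, DESeq2 called 12 and 11, edgeR without the filter 10 and 6, the replicate block 14 and 22, the block with offsets 3 and 3, and edgeR with DESeq2 size factors 2 and 2. Limma on log2(TPM + 1) called 1 and 0. The lower count was 0 with effective-length offsets, in limma on log2(TPM + 0.1), without a composition factor and without robust estimation. Without 1 library there were 1 to 4 higher and 0 to 1 lower. Among the 58 other ribosome biogenesis genes, 0 in edgeR became 1 lower in DESeq2 and 2 lower with the block, Ddx21 and Nsa2. The causes of these shifts were not tested.

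Same-numbered libraries deviated together with an r of 0.037, 0.187 and 0.107 over 3613 genes, and of 0.303, 0.306 and 0.316 over the 1904 genes averaging 5 log2 CPM or more. Every library correlated best with its own number in both sets, a hint from the data, and with 1 value under 0.1 over all genes the numbers were not taken as pairs. With the replicate block the members were at -0.33, -0.34 and 0.04, and Fbl passed. Rrs1 had the fewest counts of the 3, 691 to 870 per library, and an interval of -0.55 to -0.13. With effective-length offsets the interval of Utp20 was the widest, -0.22 to 0.54.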
